A study of Mus musculus with 13 samples.

Results

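The 10 genes described here encode parts of the machinery that copies DNA, or proteins made mainly in dividing cells: Mcm2, Mcm3, Mcm4, Mcm5, Mcm6, Mcm7, Pcna, Cdc45, Mki67 and Top2a. They were chosen by name, as a view of cycling in a tumour cell line, and make up 10 of the 27071 features of the count table. The study asked which RNAs are held by dAKAP1, a protein that anchors signalling enzymes at the outer mitochondrial membrane. Total RNA of MA-10 cells, a steroid-making line from a mouse Leydig cell tumour, was mixed with bait protein in the tube and pulled down with an antibody against maltose-binding protein (MBP), and the RNA was then sequenced. KHT libraries (n = 4) came from purified bait holding the KH and Tudor domains of dAKAP1. NEG libraries (5 in all) came from antibody beads with no bait, with MBP, or with a KHT protein labelled GDDG, and the sources used here do not say which library had which bait. IPT libraries (n = 4) held the RNA that went in. Every library came from the same line, grown in RPMI medium with horse serum, with no treatment of the cells named, so no group differs from another in the state of the cells by label. Whether the libraries of a group came from separate cultures is not stated, and p-values measure only the spread between these libraries. The KHT samples were grouped by title and treatment, since their description field speaks of negative controls.

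The proteins of Mcm2 to Mcm7 form a ring, the core of the helicase that unwinds DNA ahead of the replication fork. The ring is loaded onto origins before S phase and starts to unwind once Cdc45 and the GINS complex join it. PCNA is the sliding clamp that holds DNA polymerases on their template. TOP2A is the type II topoisomerase that untangles DNA and sister chromatids, and Ki-67, the product of Mki67, coats mitotic chromosomes and is widely used to stain cycling cells. In mammals E2F proteins control many S-phase genes, and genes that peak in G2 and mitosis often carry CCAAT boxes near their start.

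Promoter sequences are shown because the MCM genes and Top2a belong to these classes. RefSeq windows on GRCm38.p6 (mouse), from 250 bases before to 50 bases after a transcript start, were matched for 9 of the 10 genes (all but Mcm4), with 2 windows for Mcm7. The windows were searched on both strands for the E2F words TTTGGCGC, TTTCGCGC, TTTCCCGC and TTTGCCGC. At least 1 of these words lay in windows of 4 genes (Mcm3, Mcm5, Mcm6 and Mcm7), against 2.26% of 32851 windows of the same length. Each stretch below has 30 bases, written 5′ to 3′ on the gene's strand with the E2F word in capitals. A match is a description of letters and not a binding site.
Mcm3, chr1:20820263-20820292 (minus strand, word from base 39 after the start): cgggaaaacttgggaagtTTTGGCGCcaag
Mcm5, chr8:75109345-75109374 (plus strand, word from base 153 before the start): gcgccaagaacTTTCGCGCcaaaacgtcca
Mcm6, chr1:128359797-128359826 (minus strand, word from base 110 before the start): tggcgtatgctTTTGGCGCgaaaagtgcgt
Mcm6, chr1:128359734-128359763 (minus strand, word from base 47 before the start): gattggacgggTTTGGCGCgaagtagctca
Mcm7, chr5:138171849-138171878 (minus strand, word from base 17 after the start): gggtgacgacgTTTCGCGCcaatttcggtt
In Mcm5 and in the first stretch of Mcm6, a word on the other strand overlaps the one in capitals. Mcm3 and Mcm7 each have 1 further word on the opposite strand, and the Mcm7 word at base 17 runs into a CCAAT. The box CCAAT, read as CCAAT or ATTGG, lay in all 10 windows, against 37.4% of all windows. Top2a had the most, 6, shown in capitals in the 250 bases before its start.
Top2a, chr11:99024190-99024439 (minus strand): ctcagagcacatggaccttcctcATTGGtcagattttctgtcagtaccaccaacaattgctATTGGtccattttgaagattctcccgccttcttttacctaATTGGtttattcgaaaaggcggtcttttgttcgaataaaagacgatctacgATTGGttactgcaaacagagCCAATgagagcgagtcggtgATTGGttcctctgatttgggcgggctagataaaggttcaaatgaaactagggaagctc
A further word, TTTGAA or TTCGAA, known from genes that peak in G2 and mitosis, lay in windows of 5 genes (Mcm2, Mcm7, Cdc45, Mki67 and Top2a), against 19.2% of all windows.

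NEG 2 had 0 counts throughout and entered no value, which left 12 libraries, 4 in each group. Total estimated counts ran from 1955446 to 3689792 in KHT, from 1162178 to 1618998 in NEG and from 2487679 to 3085423 in IPT. In NEG, 9 features that each took at least 0.5% of pooled NEG counts held 96.0% to 98.1% of a library, against 29.3% to 52.7% in KHT and 26.7% to 38.0% in IPT. Outside them a NEG library held only 31318 to 49062 counts, while KHT libraries held at least 929348 and IPT libraries at least 1542713. Levels below are counts-per-million (CPM) of the library size that TMM scaling gives, called normalised CPM. On that scale a single count is worth 4.12 to 6.76 CPM in a NEG library and 0.106 to 0.251 CPM in a KHT or IPT library. Gene lengths were not used, so levels are compared between libraries and never between genes. All 10 Leydig markers examined had counts in every group, summing to 1542 to 4619 counts a library in KHT, 2 to 97 in NEG and 3220 to 5970 in IPT. Of other testis cell types, all 5 Sertoli markers had counts in KHT (122 to 392 a library in sum), 1 in NEG (0 to 15) and all but Fshr in IPT (255 to 456). Each of 3 germ cell markers in the table had counts in KHT (6 to 27), none in NEG, and Ddx4 alone in IPT (14 to 35). Of 5 macrophage, endothelial and peritubular markers, all had counts in KHT (67 to 203) and in IPT (87 to 266), and all but Cd68 and Myh11 in NEG (7 to 35). The endothelial genes among them differed: Cdh5 stood at 7.27 to 18.01 CPM in KHT, at 0, 12.2, 13.5 and 8.24 CPM in NEG 1, 3, 4 and 5, and at 8.57 to 24.5 CPM in IPT. Pecam1 stood at 3.76 to 12.5 CPM in KHT, at 149.9, 146, 135 and 20.6 CPM in NEG 1, 3, 4 and 5, and at 3.38 to 4.08 CPM in IPT, and the part of these markers in the results below was not tested. By correlation over genes, KHT 1 and KHT 2 were most like IPT 1 (r = 0.940 and 0.903), KHT 3 was most like IPT 3 (r = 0.939) and IPT 2 most like IPT 4 (r = 0.960), so the KHT and IPT libraries did not separate by group.

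All 10 genes were well measured in KHT and IPT, at 66 to 2269 counts in each library, with ranges of CPM that overlapped between these groups. In the NEG libraries they were at 0 or at few counts, except in NEG 5. Together the 10 genes held 0.370%, 0.333%, 0.421% and 0.416% of the counts outside the 9 dominant features in KHT 1 to 4. They held 0.00319%, 0.112%, 0.0809% and 0.499% in NEG 1, 3, 4 and 5, and 0.358%, 0.392%, 0.439% and 0.384% in IPT 1 to 4. The mean share (± SD over 4 libraries) was 0.385% ± 0.0415 in KHT, 0.174% ± 0.222 in NEG and 0.393% ± 0.0339 in IPT. NEG 5 lay above every KHT and IPT library, and the other NEG libraries lay below all of them. KHT and NEG shares are of RNA pulled down from the same line, so differences between groups are not read as differences in cycling. Within IPT, which is bulk RNA, fewer cycling cells and less of these RNAs per cell cannot be told apart.

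**Figure D1:**
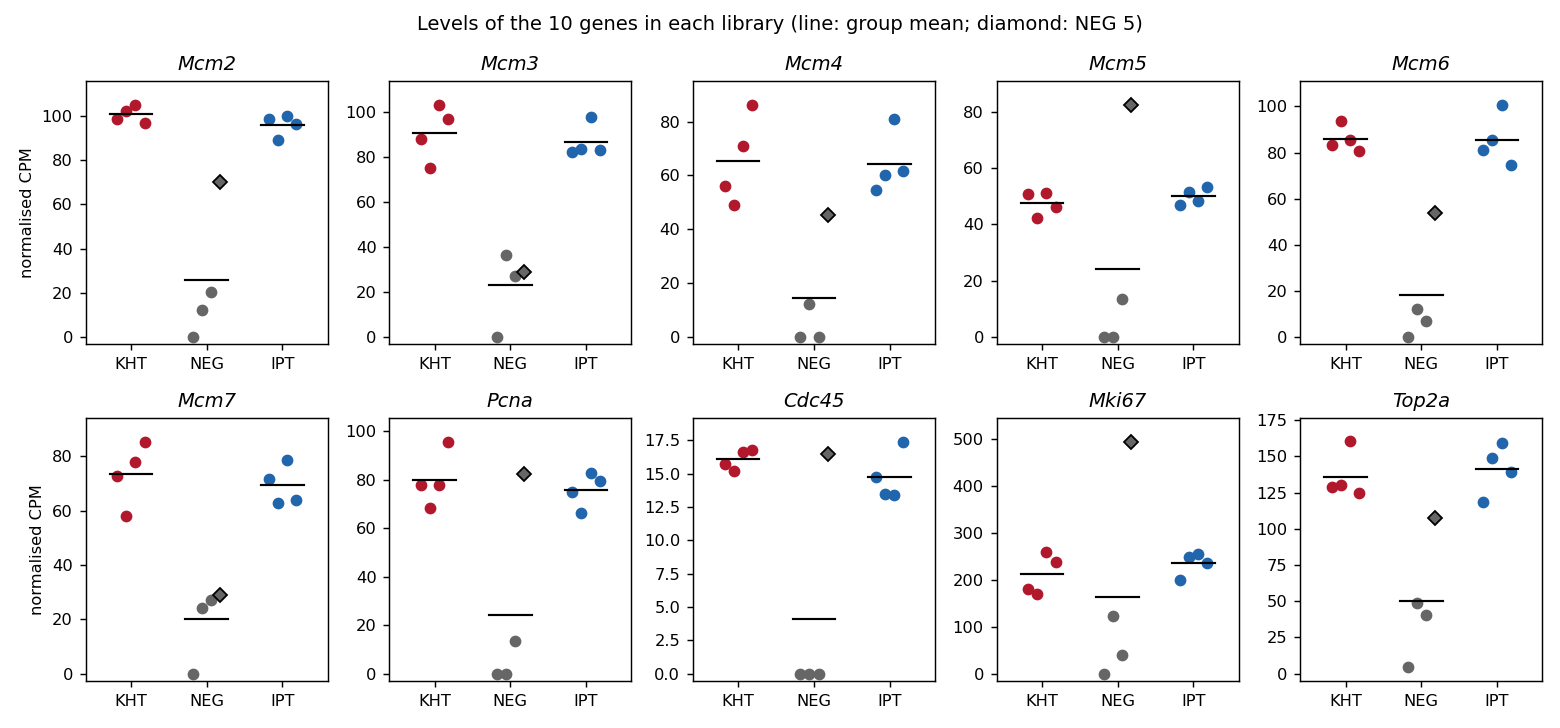
Normalised counts-per-million (CPM) of each of the 10 genes in every library, 1 panel a gene with its own axis, for KHT (4 libraries), NEG (4) and IPT (4); points are libraries, the line is the group mean and the diamond is NEG 5. KHT and IPT ranges overlap in each panel, and NEG 5 is the highest NEG library in every panel except Mcm3, at 82.4 CPM for Mcm5 and 495 CPM for Mki67.

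The 6 subunits of the helicase ring are taken first. Mcm2 (chromosome 6, 88883474 to 88898780, GRCm38.p6) stood at 98.6, 102, 105 and 97.0 CPM in KHT 1 to 4, at 0, 12.2, 20.3 and 70.1 CPM in NEG 1, 3, 4 and 5, and at 98.5, 89.2, 99.9 and 96.5 CPM in IPT 1 to 4. The KHT and IPT ranges overlapped, and every NEG library lay below both. Mcm2 averaged 101 ± 3.65 CPM in KHT, 25.6 ± 30.8 CPM in NEG and 96.0 ± 4.79 CPM in IPT (± SD over 4 libraries each). Mcm3 (chromosome 1, 20802966 to 20820312) stood at 88.0, 75.1, 103 and 97.0 CPM in KHT 1 to 4, at 0, 36.5, 27.0 and 28.9 CPM in NEG 1, 3, 4 and 5, and at 82.1, 83.6, 97.7 and 82.8 CPM in IPT 1 to 4. Its highest NEG value was in NEG 3 and not NEG 5, and again no NEG library reached the lowest KHT or IPT value. Mcm3 averaged 90.8 ± 12.2 CPM in KHT, 23.1 ± 15.9 CPM in NEG and 86.6 ± 7.44 CPM in IPT. Mcm4 (chromosome 16, 15623897 to 15637400) stood at 56.0, 48.8, 71.0 and 86.2 CPM in KHT 1 to 4, at 0, 12.2, 0 and 45.3 CPM in NEG 1, 3, 4 and 5, and at 54.6, 60.3, 81.0 and 61.7 CPM in IPT 1 to 4. Here NEG 5 came near KHT 2, the lowest of the KHT libraries, without reaching it. Mcm4 averaged 65.5 ± 16.6 CPM in KHT, 14.4 ± 21.4 CPM in NEG and 64.4 ± 11.5 CPM in IPT.

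Mcm5 (chromosome 8, 75109468 to 75128439) stood at 50.7, 42.2, 51.2 and 46.1 CPM in KHT 1 to 4, at 0, 0, 13.5 and 82.4 CPM in NEG 1, 3, 4 and 5, and at 46.9, 51.3, 48.2 and 53.4 CPM in IPT 1 to 4. It is the subunit of the ring for which NEG 5 exceeded every KHT and IPT library, from 20 counts, while NEG 1 and NEG 3 had none. Mcm5 averaged 47.5 ± 4.26 CPM in KHT, 24.0 ± 39.5 CPM in NEG and 49.95 ± 2.95 CPM in IPT (± SD over 4 libraries each). Mcm6 (chromosome 1, 128331575 to 128359705) stood at 83.1, 93.7, 85.3 and 80.7 CPM in KHT 1 to 4, at 0, 12.2, 6.76 and 53.6 CPM in NEG 1, 3, 4 and 5, and at 81.0, 85.3, 101 and 74.5 CPM in IPT 1 to 4. All NEG libraries lay below the KHT and IPT ranges, which overlapped. Mcm6 averaged 85.7 ± 5.68 CPM in KHT, 18.1 ± 24.2 CPM in NEG and 85.4 ± 11.1 CPM in IPT. Mcm7 (chromosome 5, 138164583 to 138172111) stood at 72.6, 58.0, 78.1 and 85.5 CPM in KHT 1 to 4, at 0, 24.3, 27.0 and 28.9 CPM in NEG 1, 3, 4 and 5, and at 71.6, 63.0, 78.6 and 64.0 CPM in IPT 1 to 4. NEG 3, NEG 4 and NEG 5 lay close together at 4, 4 and 7 counts, below all KHT and IPT libraries. Mcm7 averaged 73.5 ± 11.6 CPM in KHT, 20.1 ± 13.5 CPM in NEG and 69.3 ± 7.28 CPM in IPT.

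Cdc45, which turns the loaded ring into a working helicase (chromosome 16, 18780447 to 18811972), stood at 15.8, 15.2, 16.6 and 16.8 CPM in KHT 1 to 4, at 0, 0, 0 and 16.5 CPM in NEG 1, 3, 4 and 5, and at 14.7, 13.5, 13.4 and 17.4 CPM in IPT 1 to 4. Its NEG value rested on 4 counts in NEG 5, which put that library inside the KHT and IPT ranges, and on none elsewhere. Cdc45 averaged 16.1 ± 0.751 CPM in KHT, 4.12 ± 8.24 CPM in NEG and 14.8 ± 1.87 CPM in IPT (± SD over 4 libraries each). Pcna, the clamp gene (chromosome 2, 132249286 to 132253180), stood at 77.6, 68.2, 77.8 and 95.7 CPM in KHT 1 to 4, at 0, 0, 13.5 and 82.4 CPM in NEG 1, 3, 4 and 5, and at 74.9, 66.4, 82.7 and 79.3 CPM in IPT 1 to 4. NEG 5, with 20 counts, lay within the KHT and IPT ranges, and the other NEG libraries lay far below them. Pcna averaged 79.9 ± 11.5 CPM in KHT, 24.0 ± 39.5 CPM in NEG and 75.8 ± 7.04 CPM in IPT.

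Top2a (chromosome 11, 98992947 to 99024199), whose upstream sequence with its CCAAT boxes is shown above, stood at 129, 129.9, 160.4 and 125 CPM in KHT 1 to 4, at 4.28, 48.7, 40.5 and 107 CPM in NEG 1, 3, 4 and 5, and at 118, 149, 159 and 139 CPM in IPT 1 to 4. It is the gene of the 10 with a count in NEG 1, where the 4.28 CPM is that 1 count, and NEG 5 lay just below the lowest IPT library. Top2a averaged 136 ± 16.5 CPM in KHT, 50.2 ± 42.6 CPM in NEG and 141 ± 17.5 CPM in IPT (± SD over 4 libraries each). Mki67 (chromosome 7, 135689784 to 135716450) stood at 180.4, 170.2, 259 and 238 CPM in KHT 1 to 4, at 0, 122, 40.5 and 495 CPM in NEG 1, 3, 4 and 5, and at 201, 249, 256 and 237 CPM in IPT 1 to 4. NEG 5 was higher than any KHT or IPT library, NEG 3 and NEG 4 were lower than all of them, and NEG 1 had no count. Mki67 averaged 212 ± 43.1 CPM in KHT, 164 ± 226 CPM in NEG and 235 ± 24.6 CPM in IPT, so the SD of NEG exceeded its mean.

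Setting KHT against NEG asks what the bait held beyond the control pull-downs, whose beads had no bait, MBP or the KHT protein labelled GDDG. In KHT, 5 genes of the ring (Mcm2, Mcm3, Mcm4, Mcm6 and Mcm7) were higher than in NEG, and no gene of the 10 was lower, beside 2.72% of all genes. The 5 of 10 stand beside 31.0% of all 10714 genes tested that were higher by the same rule, an adjusted p under 0.05 in edgeR's quasi-likelihood test with Benjamini-Hochberg adjustment over all of them. The median log2 fold change of the 10 was 1.80, against 1.73 over all genes, or 0.94 where a gene at 0 in NEG takes a bound of 3 counts over the group. Mcm6 had a log2 fold change of 2.15 (SE 0.72, edgeR adjusted p = 0.0280). The values were 2.06 for Mcm4 (SE 0.72, edgeR adjusted p = 0.0345) and 2.02 for Mcm3 (SE 0.68, edgeR adjusted p = 0.0283). They were 1.92 for Mcm7 (SE 0.64, edgeR adjusted p = 0.0283) and 1.92 for Mcm2 (SE 0.73, edgeR adjusted p = 0.0462). Mcm5 did not pass, at 0.87 (SE 0.69, edgeR adjusted p = 0.307), nor did Cdc45, at 1.68 (SE 0.70, edgeR adjusted p = 0.0643), or Pcna, at 1.63 (SE 0.77, edgeR adjusted p = 0.0973). Top2a stood at 1.43 (SE 0.70, edgeR adjusted p = 0.109) and Mki67 at 0.35 (SE 0.91, edgeR adjusted p = 0.762). In 6 genes, the 5 called ones and Top2a, every KHT library was above every NEG library, as in 45.8% of all genes tested.

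These calls depended on single libraries. Without NEG 5 all 10 were higher in KHT (edgeR adjusted p between 0.000306 and 0.0346), beside 47.2% of the 11484 genes then tested. Log2 fold changes then ran from 2.07 for Mki67 to 4.47 for Pcna, leaving out Cdc45, which is at 0 in NEG 1, 3 and 4 and whose fitted fold is no measure of size. Mcm5 reached 3.73 (SE 0.66, edgeR adjusted p = 0.000765) and Mcm6 3.99 (SE 0.59, edgeR adjusted p = 0.000306). Without KHT 3 none of the 10 passed, beside 26.1% of all genes: Mcm6 had an edgeR adjusted p of 0.0529 with a log2 fold change of 2.17. The number called, each with the share of all genes beside it, was 1 without KHT 4 (26.7%), and 2 without KHT 1 (25.8%), NEG 3 (21.6%) or NEG 4 (20.9%). It was 3 without NEG 1 (15.0%), IPT 2 (27.7%), IPT 3 (27.9%) or IPT 4 (27.7%), and 4 without KHT 2 (26.3%) or IPT 1 (29.8%). The share over all genes was thus lower than 31.0% in each of these settings as well. DESeq2 called 8 of the 10, beside 36.7% of all genes, and limma voom 3, beside 32.7%. With KHT and NEG fitted alone the count was 0, beside 24.8% of all genes tested in that fit. Scaled by total counts it was 10, beside 97.3% of all genes, with a median log2 fold change of 5.66 over all genes and 5.72 over the 10.

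**Figure D2:**
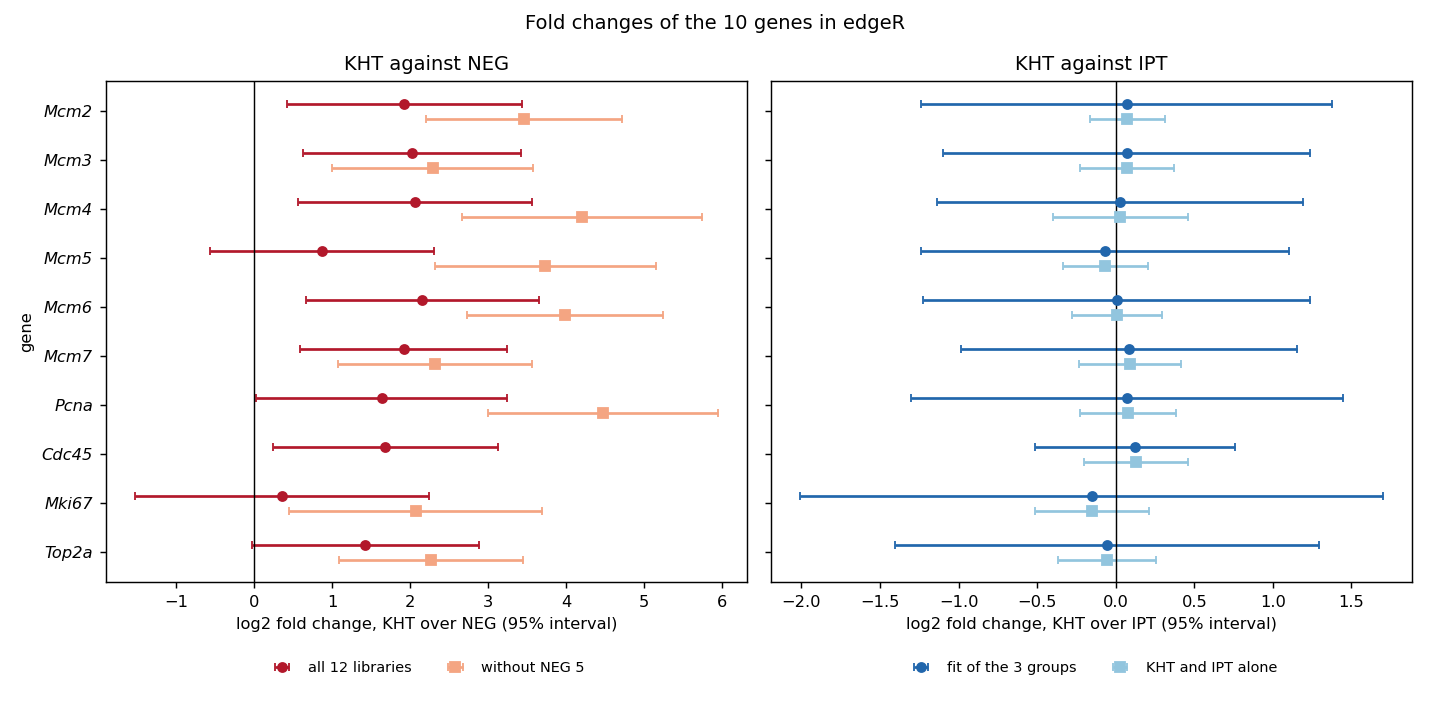
Log2 fold changes of the 10 genes with 95% intervals in edgeR, for KHT over NEG (left; all 12 libraries, and without NEG 5) and for KHT over IPT (right; the fit of the 3 groups, and KHT with IPT alone). Left, the intervals without NEG 5 all lie above 0 (Cdc45 is not drawn there, since it is at 0 in NEG 1, 3 and 4); right, all intervals cross 0.

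NEG 5 held most of what was seen of these genes in NEG. It had 245 of the 318 counts of the 10 genes in NEG (77.0%, exact binomial 95% interval 72.0% to 81.6%), but 31.8% of the NEG counts outside the dominant features. At least 1 count was seen for 1 of the 10 genes in NEG 1, 7 in NEG 3, 8 in NEG 4 and 10 in NEG 5. No gene of the 10 had more than 20 counts in a NEG library other than NEG 5. Since 3 counts are worth 18.3 CPM in NEG 3 and 20.3 CPM in NEG 4, Cdc45, at 13.4 to 17.4 CPM in KHT and IPT, could not have been told from 0 at this depth in NEG 3 or NEG 4. Intervals and floors cover counting error only, and they are too narrow if the table counts each mate of a pair, which the values do not settle. Which bait NEG 5 had is not stated, and its part in these values was not tested.

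**Figure D3:**
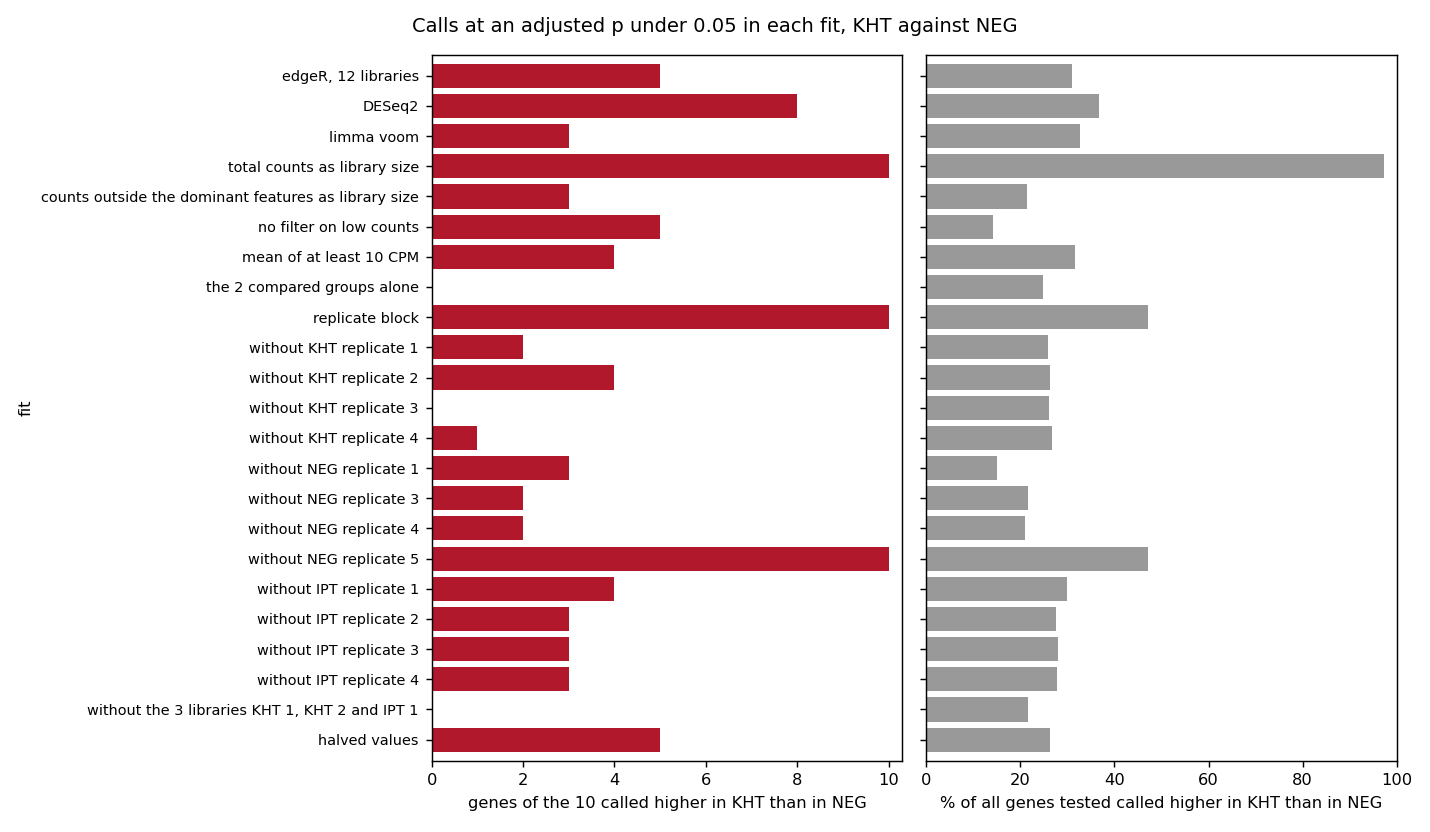
Left, the number of the 10 genes called higher in KHT than in NEG in the fit as reported and in each alternative; right, the share of all genes tested called higher by the same rule. The count is 5 as reported, 10 without NEG 5, under total counts and with the replicate block, and 0 without KHT 3 and with the 2 groups alone.

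Mki67 took a larger part of the counts of the 10 genes in NEG 3 and NEG 5 than in KHT and IPT, but not in NEG 4. Mki67 took 21.2%, 21.2%, 25.7% and 24.6% of the counts of the 10 genes in KHT 1 to 4. It took 45.5% in NEG 3 (20 of 44 counts, exact binomial 95% interval 30.4% to 61.2%), 21.4% in NEG 4 (6 of 28, 8.30% to 41.0%) and 49.0% in NEG 5 (120 of 245, 42.6% to 55.4%). In IPT 1 to 4 it took 23.8%, 27.3%, 25.1% and 26.1%. NEG 3 and NEG 5 thus lay above every KHT and IPT library, whose highest upper bound was 28.4%, and NEG 4 did not. The intervals are too narrow if each mate of a pair is counted. For NEG 3, with 44 counts, a gap between intervals is therefore not settled. Counts of Mki67 per count of the 6 ring genes were 0.402, 0.405, 0.524 and 0.483 in KHT 1 to 4, 1.25, 0.429 and 1.60 in NEG 3, 4 and 5, and 0.461, 0.575, 0.505 and 0.547 in IPT 1 to 4. The ratio averaged 0.453 ± 0.0600 (SD, n = 4) in KHT and 0.522 ± 0.0497 (SD, n = 4) in IPT, with overlapping ranges. It needs no scaling between libraries, but it was chosen after its values were seen and has no test. NEG 1 had neither an Mki67 count nor a count of a ring gene.

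**Figure D4:**
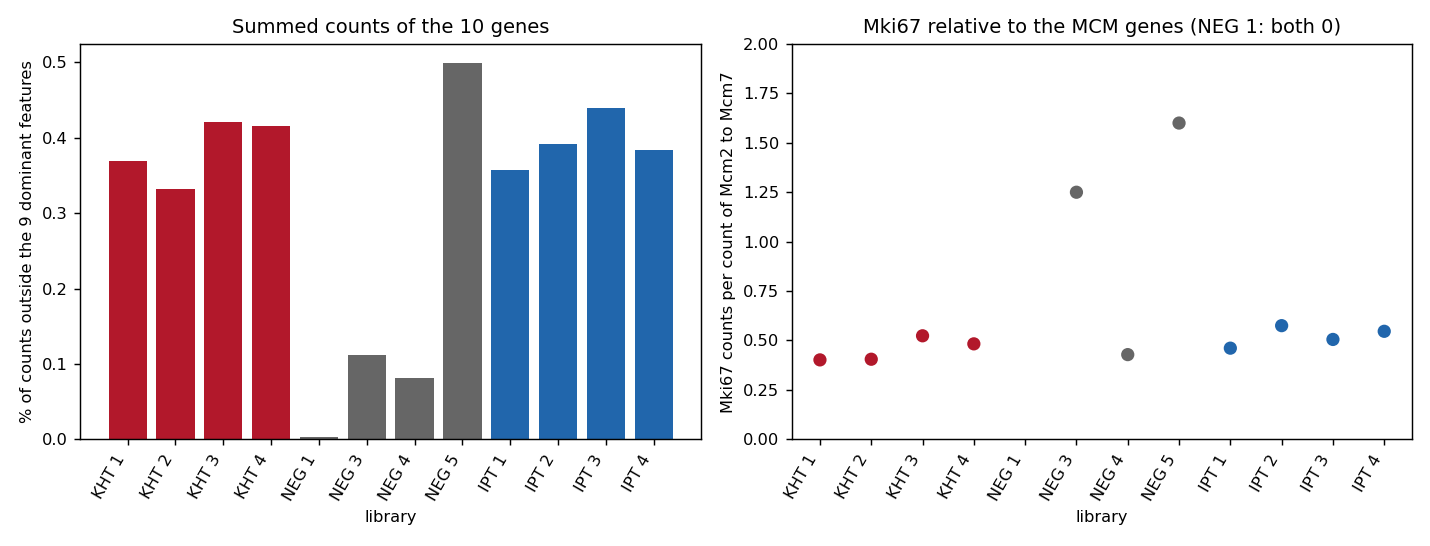
Left, the share of counts outside the 9 dominant features held by the 10 genes in each library (percent); right, Mki67 counts per count of Mcm2 to Mcm7 in each library with a value. The share is 0.499% in NEG 5 and at most 0.112% in the other NEG libraries, and the ratio is 1.60 in NEG 5 and at most 0.575 in KHT and IPT.

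The comparison of KHT with IPT asks which RNAs the bait took up more or less than their level in the input. None of the 10 genes differed, beside 0.00933% of all genes tested, a single gene, that was higher in KHT (edgeR; 175 genes had an unadjusted p under 0.05, DESeq2 called 4 higher and 3 lower, and limma voom 1 higher and 8 lower). Log2 fold changes ran from -0.15 for Mki67 to 0.12 for Cdc45 (edgeR adjusted p = 0.9999 for each gene), and their median was 0.05, against 0.01 over all genes. Mcm2 stood at 0.07, Mcm3 at 0.07, Mcm4 at 0.02, Mcm5 at -0.07, Mcm6 at 0.01 and Mcm7 at 0.09. Pcna stood at 0.07 and Top2a at -0.06. The 4 genes with an E2F word in their windows ran from -0.07 to 0.09, and the other 5 with a window from -0.15 to 0.12. In no gene did the KHT and IPT libraries separate, as they did upward in 0.840% and downward in 1.17% of all genes.

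How large a difference these libraries leave room for depends on the estimate of the spread. In the fit of the 3 groups, NEG included, the 95% intervals of the 10 genes together span log2 -2.01 to 1.70, or 0.249-fold to 3.25-fold, with a median width of 2.40. With KHT and IPT fitted alone they span -0.51 to 0.46, or 0.701-fold to 1.37-fold, with a median width of 0.62. In that fit the interval was -0.17 to 0.31 for Mcm2, -0.40 to 0.46 for Mcm4, -0.20 to 0.46 for Cdc45 and -0.51 to 0.21 for Mki67 (edgeR adjusted p between 0.9968 and 0.998 over the 10 genes). A p that misses the threshold does not show that the levels are equal. Scaled by total counts all 10 values were below 0, with a median of -0.21 against -0.24 over all genes, so 7 of the directions turned with the scaling, while Mcm5, Top2a and Mki67 were below 0 under both.

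NEG was also set against IPT. This comparison shares the NEG libraries with the one above, so its values are given beside those and not as a further line of evidence. Mcm3, Mcm4, Mcm6 and Mcm7 were lower in NEG than in IPT, 4 of 10 beside 32.5% of all genes, and none was higher, beside 3.64%. The log2 fold changes were -2.15 for Mcm6 (edgeR adjusted p = 0.0271), -2.04 for Mcm4 (0.0347), -1.95 for Mcm3 (0.0314) and -1.83 for Mcm7 (0.0330). Mcm2, at -1.86, missed the threshold (edgeR adjusted p = 0.0502). Cdc45 stood at -1.56, Pcna at -1.56, Top2a at -1.48, Mcm5 at -0.94 and Mki67 at -0.51 (edgeR adjusted p between 0.0821 and 0.657). The median was -1.69, against -1.74 over all genes and -0.95 with genes at 0 in NEG at their bound. Without NEG 5 all 10 were lower in NEG (edgeR adjusted p between 0.00026 and 0.0253; 47.4% of all genes). The count, with the share of all genes beside it, was 0 without IPT 2 (26.8%) or IPT 3 (27.3%) and 1 without IPT 4 (27.0%). It was 2 without IPT 1 (28.8%), NEG 3 (22.3%) or NEG 4 (21.5%), and 3 without NEG 1 (15.6%).

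Within KHT and within IPT the 10 genes did not all vary alike. The median coefficient of variation over libraries was 12.8% in KHT and 10.5% in IPT, against 18.8% in KHT and 16.2% in IPT over 5379 genes whose mean reached 10 CPM. Those genes are not matched to the 10 for level, and counting error weighs more at low levels. Mcm2 was the steadiest in KHT, at 3.62%, below the 4.26% that counting alone would give at its depth. Mcm4 varied most, at 25.3% in KHT and 17.8% in IPT, and counting alone would give 5.38% in KHT and 4.44% in IPT. Cdc45, at 4.67% in KHT and 12.7% in IPT, is limited by its few counts (10.7% in KHT and 9.37% in IPT from counting). Over the 8 KHT and IPT libraries the log2 range was 0.24 for Mcm2, 0.81 for Mcm4 and 0.60 for Mki67. KHT 2 was the lowest of the 8 libraries for 5 genes (Mcm3, Mcm4, Mcm5, Mcm7 and Mki67), and KHT 3 or KHT 4 the highest for 7.

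The mean of the 10 genes, each centred on the log2 scale, ran from -0.157 in KHT 2 to 0.125 in KHT 3, with IPT 3 at 0.121, KHT 4 at 0.105, IPT 1 at -0.090, IPT 2 at -0.051, KHT 1 at -0.048 and IPT 4 at -0.005. The high and low libraries thus came from both groups. Against the mean of the other 9 genes, Pearson's r over these 8 libraries was 0.94 for Mcm3, 0.90 for Mcm4, 0.75 for Mcm7, 0.70 for Mki67 and 0.64 for Pcna. It was 0.45 for Top2a, 0.26 for Mcm5, 0.14 for Mcm2, 0.05 for Cdc45 and -0.04 for Mcm6. These correlations describe 8 libraries that share scaling factors, and the libraries resemble each other across groups as given above. Of 7315 genes whose mean reached 5 CPM, the 5 named genes most like the mean profile were Chaf1b of chromatin assembly factor 1 (r = 0.972), Fnbp1 (0.968), Usp38 (0.965), Pgd (0.965) and Copg1 (0.962), while the median r was 0.025.

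Other genes of the cell cycle were read from 6 lists drawn up by function. In KHT against IPT none of their 132 tested genes passed, in the fit as reported or in any alternative. The median log2 fold change was 0.00 for 20 genes of origin licensing and helicase partners, -0.03 for 31 of polymerases, clamp loader and fork, and 0.02 for 10 of nucleotide supply. It was -0.03 for 19 tested genes of G1 and S control, of 21 listed, and -0.05 for 16 cell cycle inhibitors. The list of 36 mitosis genes had a median of -0.17, with 27 genes below 0 and 9 above, beside an all-gene median of 0.01. That median ran from -0.29 to -0.08 when single libraries were left out. It was -0.05, with 22 genes below 0 and 14 above, without KHT 1, KHT 2 and IPT 1, and -0.43 under total counts, where the all-gene median was -0.24. Those libraries were picked after seeing the correlations between libraries, and they have the lowest mitosis sums in KHT and IPT. More of them are KHT than IPT, so a median nearer 0 without them is no separate evidence.

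Over KHT and IPT, the summed level of the mitosis genes moved with the libraries more than with the groups. It was 708, 657, 957 and 983 CPM in KHT 1 to 4, 17.1, 189, 216 and 960.3 CPM in NEG 1, 3, 4 and 5, and 702, 993, 988 and 1013 CPM in IPT 1 to 4. KHT 1, KHT 2 and IPT 1 lay below the other 5 KHT and IPT libraries, and NEG 5 lay beside those 5. The 10 genes summed to 851, 804, 1007 and 968 CPM in KHT 1 to 4, to 4.28, 268, 189 and 1010 CPM in NEG 1, 3, 4 and 5, and to 843, 910.3, 1017 and 905 CPM in IPT 1 to 4. KHT 2, IPT 1 and KHT 1 were again the lowest of the KHT and IPT libraries. The origin licensing list was flat in its sum, at 311 to 319.9 CPM in KHT and 290.3 to 343 CPM in IPT. Its single genes were not all flat, as 2 picked after their values were seen show. Orc2 stood at 34.4 to 37.5 CPM in KHT 1, KHT 2 and IPT 1, against 13.8 to 23.4 CPM in the other KHT and IPT libraries. Cdc7 stood at 4.90 to 5.07 CPM against 10.0 to 11.8 CPM. A split of KHT 1, KHT 2 and IPT 1 from the others was also seen outside the cell cycle, in some Leydig markers. The markers printed were picked after their values were seen. Cyp11a1 stood at 26.2, 28.8 and 25.6 CPM in KHT 1, KHT 2 and IPT 1, against 87.8 to 136.7 CPM in the other KHT and IPT libraries. Scarb1 went the other way, at 24.5, 22.8 and 28.1 CPM against 9.81 to 18.9 CPM. Fdx1, Cyp17a1 and Insl3 separated in the direction of Cyp11a1, and Hsd3b6 in that of Scarb1. For Nr5a1, Hsd3b1, Lhcgr and Star the ranges overlapped, so the Leydig markers did not all split. The cause was not tested.

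**Figure D5:**
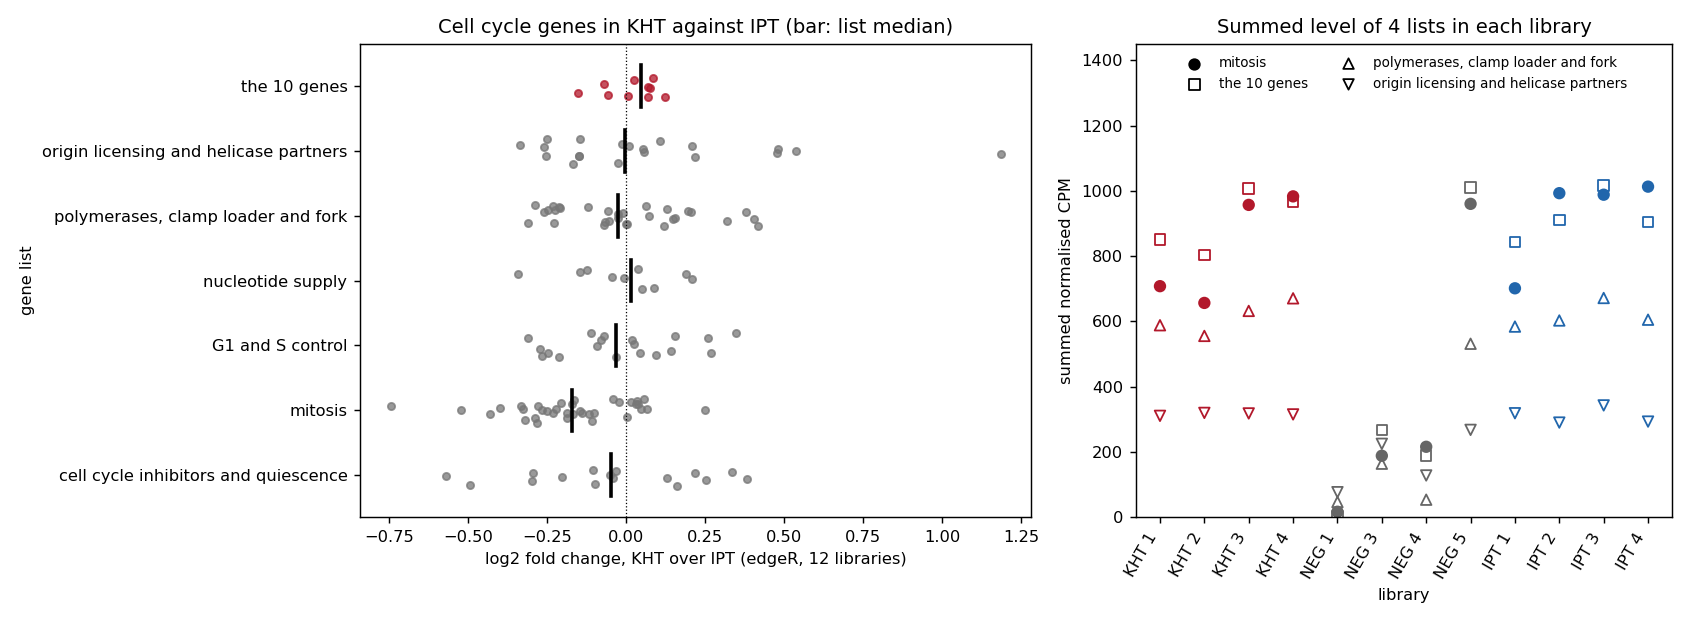
Left, log2 fold change of KHT over IPT for each gene of the 10 and of 6 cell cycle lists (1 point a gene, bar at the list median); right, summed normalised CPM of 4 of these lists in each library, coloured by group. The mitosis median is -0.17 and the others lie between -0.05 and 0.05; KHT 1, KHT 2 and IPT 1 have the lowest mitosis sums of the KHT and IPT libraries.

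From each list the 3 genes with the smallest p in KHT against IPT are named, each with an edgeR adjusted p of 0.9999. They were, with their log2 fold changes, Kif4 (-0.75), Kif23 (-0.40), both kinesin motors, and Hmmr (-0.43), which binds spindle microtubules, among mitosis genes. Kif4 stood at 11.9, 4.84, 17.2 and 18.6 CPM in KHT 1 to 4, at 0, 0, 0 and 33.0 CPM in NEG 1, 3, 4 and 5, and at 11.9, 23.5, 31.0 and 22.4 CPM in IPT 1 to 4. KHT 2 was the lowest of the KHT and IPT libraries, and the KHT and IPT ranges overlapped. Tk1, thymidine kinase, stood at -0.34, Dtymk, thymidylate kinase, at 0.19 and Dctpp1, which breaks down dCTP, at 0.21. Gins3 of the GINS complex stood at 1.18, or 0.55 without KHT 2, its highest KHT library, Orc5 of the origin recognition complex at 0.54 and the helicase gene Recql4 at 0.48. The fork protein gene Wdhd1 stood at 0.40, the replication protein A subunit gene Rpa3 at 0.42 and the polymerase epsilon subunit gene Pole4 at 0.38. E2f1 stood at 0.35, the pocket protein gene Rbl1 at 0.26 and E2f8, a repressor of the E2F family, at -0.31. Of the inhibitors, Cdkn2b stood at -0.57, Cdkn2c at -0.30 and Trp53 at 0.38.

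The lists were read in KHT against NEG as well. Higher in KHT were 8 of 20 origin licensing genes (median log2 fold change 1.80, or 1.25 with genes at 0 in NEG at their bound), 10 of 31 polymerase and fork genes (1.66, or 1.42) and 6 of 10 nucleotide supply genes (1.87, or 1.87). So were 7 of 19 genes of G1 and S control (1.65, or 1.40), 9 of 36 mitosis genes (1.13, or 1.08) and 7 of 16 inhibitors (2.23, or 1.33), beside 31.0% of all genes (1.73, or 0.94). Without NEG 5 the counts were 15, 25, 8, 12, 27 and 8, beside 47.2% of all genes. Examples are Rrm1, a subunit of ribonucleotide reductase (1.85, edgeR adjusted p = 0.0179), Lig1, the ligase of the fork (2.76, edgeR adjusted p = 0.0104), and Anln, which acts in cytokinesis (3.11, edgeR adjusted p = 0.00691), picked after their values were seen. In each of the 6 lists 1 gene had a log2 fold change below 0. Only Gins3 was called lower, beside 2.72% of all genes. Gins3, whose protein is part of the GINS complex that binds Cdc45 and the ring, stood at 3.44, 16.6, 3.31 and 9.02 CPM in KHT 1 to 4, at 77.1, 164, 87.8 and 0 CPM in NEG 1, 3, 4 and 5, and at 3.87, 3.56, 3.31 and 2.85 CPM in IPT 1 to 4. It was high in NEG 1, NEG 3 and NEG 4, from 18, 27 and 13 counts, and had no count in NEG 5. Its log2 fold change in KHT against NEG was -3.33 (SE 0.79, edgeR adjusted p = 0.0112) with TMM scaling and 0.76 under total counts (edgeR adjusted p = 0.253), where the direction turned, and limma voom did not call it (-2.45, adjusted p = 0.172). In NEG against IPT Gins3 stood at 4.52 (SE 0.82, edgeR adjusted p = 0.00419), and at 0.13 under total counts. In NEG against IPT the lists had, in the order above, 8 of 20, 13 of 31 and 6 of 10 genes lower. The remaining lists had 9 of 19, 11 of 36 and 7 of 16, beside 32.5% of all genes. Gins3 alone was higher, beside 3.64% of all genes.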

How the data were processed

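RNA sequencing of 13 pull-down and input libraries was read from 1 table of estimated counts per gene (expected counts, unscaled) deposited by the authors. The submitters' processing notes name kallisto, DESeq2, GRCm38 and mm10, and the versions and roles are not given in the sources used here. Per the labels' protocols, the library kit was a stranded one for total RNA that depletes ribosomal RNA, while the molecule field names polyA RNA. The values were already whole, so no rounding was needed. In all 12 libraries with counts, 2 was a more frequent value than 1. Symbols were matched for 27004 of 27071 features, and sequences and coordinates are RefSeq's on GRCm38.p6.

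Genes were tested two-sided with edgeR 4.0.16 (R 4.3.3; TMM scaling, filterByExpr, robust quasi-likelihood fit of the 3 groups, no replicate block, 10714 genes), with Benjamini-Hochberg adjustment over all of them and a threshold of 0.05. The code was tested on simulated data. Alternatives used DESeq2 1.42.0, limma 3.58.1 voom, other scalings, filters and sets of libraries. Library correlations used log2 of CPM plus 0.5 over genes whose mean reached 5 CPM. For bounds, 3 counts over the NEG group served as floor, and counting intervals are exact binomial (95%, scipy 1.17.1). NEG 2 was left out, since it holds no counts. All 10 genes passed the filter on low counts. From each further list the 3 genes with the smallest p in KHT against IPT were named, and for likeness the 5 named genes with the highest r. The genes, lists and markers were chosen with earlier results of these data known.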

Additional observations from a re-analysis of the deposited data

Results flagged for a closer look

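In 6 of 35 groups of 4 values (the normalised CPM of each gene, the share of counts held by the 10, and the ratio of Mki67 to ring gene counts in KHT and in IPT), 1 library stood farther from its nearest neighbour than the 95% limit allows for the spread of the group, and chance flags about 1 in 20 groups. In KHT this was Top2a in KHT 3, at 160.4 CPM, the highest of its group. In NEG it was NEG 5 for Mcm5 (82.4 CPM), Pcna (82.4 CPM) and Cdc45 (16.5 CPM, from 4 counts), each the highest, and NEG 1 for Mcm7, at 0 CPM, the lowest. In IPT it was Mcm3 in IPT 3, at 97.7 CPM, the highest. The flagged NEG 5 values rest on 20 counts for Mcm5, 20 for Pcna and 4 for Cdc45. For NEG groups mostly at or near 0 counts, as Cdc45 with 0 in NEG 1, 3 and 4, the rate of 1 in 20 does not hold. For Mcm7 the counts were 0, 4, 4 and 7 in NEG 1, 3, 4 and 5, and the cause of these flags was not tested.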

How the results depend on the processing

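For KHT against IPT, 0 of the 10 genes were called in the fit as reported and in each of the 22 alternatives. For KHT against NEG, 5 were called as reported (31.0% of all genes), 8 with DESeq2 (36.7%) and 3 with limma voom (32.7%). Mki67 had no adjusted p in DESeq2. With counts outside the dominant features as library size it was 3, beside 2299 of 10714 genes. The count was 10 under total counts (97.3%), 0 with the 2 groups alone (24.8%), and between 0 and 10 when single libraries were left out. For NEG against IPT, 4 were called as reported (3482 of all 10714 genes were lower) and 8 with DESeq2 (4172 of 10714). The count was 10 under total counts (10423 of 10714) and 0 with the 2 groups alone (2046 of 9355). It was between 0 and 10 when single libraries were left out. Without KHT 1, KHT 2 and IPT 1, chosen after seeing the correlations between libraries, both counts were 0, and with values halved, also chosen after seeing the data, both were 5. The replicate block called 10 in each of these comparisons, beside 5042 and 5022 of 10714 genes, and 0 in KHT against IPT. NEG 5 shares its number with no library, so the block fits it alone. Deviations of same-numbered libraries correlated at -0.44 to 0.24, so the numbers were not taken as pairs. Yet KHT 1 and IPT 1 were most like each other (r = 0.940), as were KHT 3 and IPT 3 (r = 0.939), so pairing is not settled.

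Of all genes, 3324 were higher in KHT as reported (against NEG), 2103 with the 2 groups alone, 10426 under total counts, 5042 with the replicate block, 5421 without NEG 5 and 1721 without NEG 1. Lower in NEG than in IPT were 3482, with 2046, 10423, 5022, 5447 and 1792 in the same settings. In KHT against IPT 1 was higher as reported, and 43 were higher and 13 lower without a filter. The share of counts held by the 10 genes, with total counts in place of those outside the dominant features, was 0.219% in KHT, 0.00646% in NEG and 0.264% in IPT. Mki67 in KHT against NEG was not called as reported, and turned to -0.05 without NEG 1. The cause of these shifts was not tested. NEG values rest on 318 counts of the 10 genes in 4 libraries, which limits every comparison with NEG.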
